A study of Sus scrofa with 4 samples.

Results

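Claudins, occludin and E-cadherin, the membrane proteins that hold gut epithelial cells together, were followed in the ileum, the stretch of small intestine before the colon, of piglets aged 16 days. The members were chosen by gene name: a probe belonged if its identifier on the array was a RefSeq transcript of *CLDN1*, *CLDN2*, *CLDN3*, *CLDN4*, *CLDN5*, *CLDN7*, *OCLN*, *TJP1* or *CDH1* in the NCBI gene table of the pig assembly Sscrofa11.1. This gave 10 probes of the 43603 on the array, for 7 of the 9 genes and of 2389 genes that could be named. *OCLN* had 3 probes, *CDH1* had 2, and the 5 other genes had 1 each. *CLDN1* and *TJP1* matched no probe by this rule and were not analysed here.

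The study, by its title, asked how weight gain in early lactation relates to immune development. Piglets came from Yorkshire × Landrace sows served by Duroc boars and were suckled. Ileum slices from 2 low-gain piglets were pooled for each low-gain sample, and slices from 3 high-gain piglets for each high-gain sample. Each group had 2 such samples, lettered a and b, with 1 single-colour array each, and all 4 arrays lay on 1 slide. No label tells whether a and b are separate pools, so the spread between them may be technical and says nothing of variation between piglets. The design text speaks of weight at birth instead of weight gain, and the sample labels were followed.

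Between 32835 and 33972 of 43803 non-control spots per array lay well above background by the scanner software's flag. Repeat spots of 31 probes had a median SD of 0.146 (log2) on low-gain array a, which was the noisiest, and of 0.0837 to 0.0984 on the other arrays. A slice of ileum holds epithelium, vessels, muscle and leukocytes, so a lower signal in such a sample cannot separate fewer cells of a type from less RNA per cell. All 8 epithelial marker genes with a probe, among them *EPCAM*, *KRT8* and *FABP2*, were well above background on all 4 arrays.

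Neighbouring enterocytes are sealed near their apical side by tight junctions. Claudins form the strands of these junctions, and different claudins either tighten the space between cells or form channels through it for ions and water. Occludin is a further strand protein, TJP1 (ZO-1) is a scaffold that ties strands to actin, and E-cadherin, the product of *CDH1*, carries the adherens junction just below. In the young gut these complexes separate the body from milk, digestive enzymes and microbes.

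Each of the 10 probes was well above background on every array. Values are log2 of the background-treated signal minus the array's 75th percentile, so 0 is the level of that percentile, and differences are low gain minus high gain. No probe of these genes passed the test between groups (limma with Benjamini-Hochberg adjustment over 33265 probes, 0 of 10 with adjusted p under 0.05, smallest 0.162), where 0.24% of all tested probes passed. At an unadjusted p under 0.05 there were 5 of 10 probes, against 18.4% of all tested probes, and all 5 had the higher mean in low gain (9.82% of all tested probes were in that class). They were the brighter *CDH1* probe, the *CLDN3* probe and the 3 *OCLN* probes, so they stand for fewer genes than probes. By brightest probe, 3 of 7 genes had an unadjusted p under 0.05 (21.6% of all genes did). In that count 4 genes had the higher mean in low gain (53.4% of all genes did) and 3 the lower. Of the 10 probes, 7 had the higher mean in low gain, as did 52.7% of all tested probes. Both low-gain arrays lay above both high-gain arrays for 6 probes (27.6% of all tested probes), and the reverse held for 2 (26.9%).

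**Figure D1:**
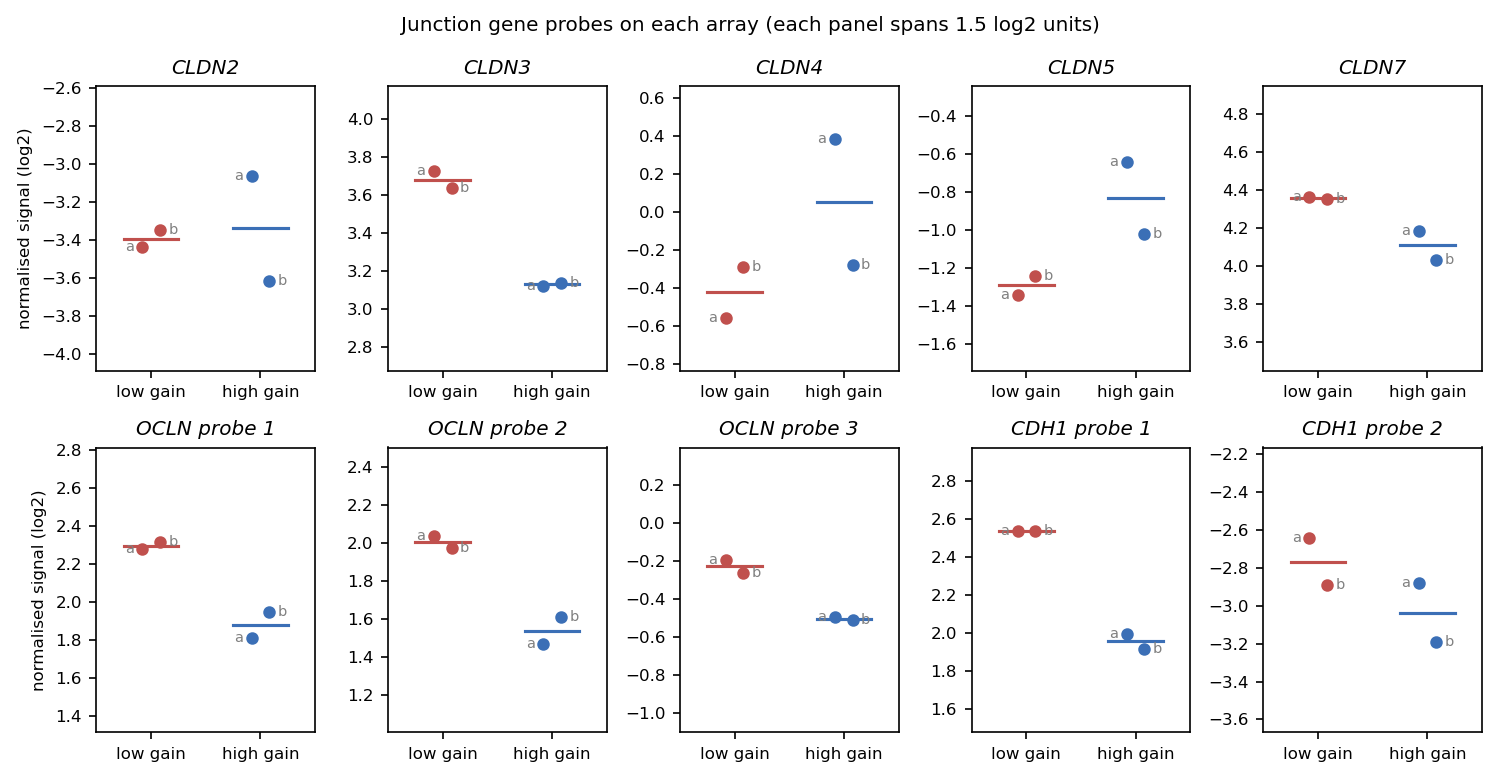
Normalised signal (log2 units above or below the array's 75th percentile) of each junction gene probe on each array, with low gain in red, high gain in blue, the letters a and b beside the points and a line at the mean of each group of 2. Low gain stands clear above high gain for CLDN3, CDH1 probe 1, the OCLN probes and CLDN7, and high gain stands clear above low gain for CLDN5. CLDN4 and CLDN2 spread widely within high gain.

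Of the claudins known to tighten the barrier, *CLDN3* is abundant in gut epithelium and is a receptor for the enterotoxin of *Clostridium perfringens*. Its probe (A_72_P441025) read 3.73 (a) and 3.64 (b) in low gain and 3.12 (a) and 3.14 (b) in high gain, and further values are given in that order. The groups did not overlap, and the gap between them, 0.50, exceeded the distance between the arrays of either group, 0.089 and 0.014. The mean was 1.47-fold higher in low gain (log2 difference 0.55 ± 0.10, SE, n = 2 arrays per group, 95% confidence interval 0.27 to 0.83, limma adjusted p = 0.167). The difference did not pass the test.

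*CLDN4*, another tightening claudin and toxin receptor, lies next to *CLDN3* in the gene table, with 0 genes between them. Its probe (A_72_P441105) gave -0.56 and -0.29 in low gain and 0.38 and -0.28 in high gain. The high-gain arrays were 0.66 apart, and high-gain array b was only 0.0097 above low-gain array b. The log2 difference was -0.48 ± 0.27 (95% confidence interval -1.22 to 0.27, limma adjusted p = 0.416). Without high-gain array a it was -0.14, and without high-gain array b it was -0.81, so its size rests on which of them is used.

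*CLDN7*, a claudin that in the intestine is found along the lateral membrane as well as at the junction, differed less. Its probe (A_72_P300854) read 4.36 and 4.35 in low gain and 4.19 and 4.03 in high gain. The arrays of the groups did not overlap, but the log2 difference was small, 0.25 ± 0.11 (95% confidence interval -0.06 to 0.56, limma adjusted p = 0.332).

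*CLDN2* forms channels for small cations and water, and in the gut it is best known from crypts and from leaky or inflamed epithelium. Its probe (A_72_P014631) was the one nearest to background, with processed signals of 37.9 and 45.7 in low gain and 57.8 and 38.4 in high gain. On the normalised scale these were -3.44, -3.35, -3.06 and -3.62. Both low-gain values lay between the 2 high-gain values. The log2 difference was -0.05 ± 0.22, and its 95% confidence interval ran from -0.66 to 0.56 (limma adjusted p = 0.910). It was 0.22 without high-gain array a and -0.33 without high-gain array b.

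*CLDN5* differs from the other members in its usual site, since it is best known as the claudin of blood vessel endothelium. Its probe (A_72_P444320) gave -1.34 and -1.24 in low gain and -0.64 and -1.02 in high gain. Both high-gain arrays lay above both low-gain arrays, and the high-gain arrays were 0.38 apart. The mean was 1.37-fold lower in low gain (log2 difference -0.46 ± 0.17, 95% confidence interval -0.92 to 0.01, limma adjusted p = 0.277) and did not pass. The difference was -0.27 without high-gain array a and -0.65 without high-gain array b.

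Endothelial marker genes are given beside *CLDN5*, and their part in its value was not tested. Of 7 with a tested probe, 0 passed the limma test (0 also at an unadjusted p under 0.05), 4 had the higher mean in low gain, and the median difference was 0.06, with values from -0.16 to 0.28. Over all 11 tested probes of these genes, 4 had the higher mean in low gain. *PECAM1*, an adhesion molecule of endothelial cells, differed by -0.16 ± 0.13, with its 2 other probes at -0.34 and -0.28. *CDH5*, the cadherin of endothelial adherens junctions, differed by 0.13 ± 0.13, but its other probe gave -0.70. The summed linear signal of the 7 markers, in units of the array's 75th percentile, was 10.95 and 11.25 in low gain and 10.86 and 10.85 in high gain.

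Occludin, the first integral tight junction protein to be identified, was read by 3 probes, and all of them had the higher mean in low gain with no overlap between groups. The brightest (A_72_P651558) gave 2.28 and 2.32 in low gain and 1.81 and 1.95 in high gain, a log2 difference of 0.42 ± 0.11 (95% confidence interval 0.12 to 0.72, limma adjusted p = 0.207). The second (A_72_P510955) read 2.04 and 1.97 against 1.47 and 1.61, a difference of 0.47 ± 0.11 (adjusted p = 0.196). The dimmest (A_72_P292669) read -0.19 and -0.26 against -0.49 and -0.51, a difference of 0.28 ± 0.10 (adjusted p = 0.272). The probes read 1 transcript, so their likeness is no further replication of the groups. The mean over the 3 probes differed by 0.39 (adjusted p = 0.085 when all genes were taken as means of their probes).

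By brightest probe, the member with the largest difference in the fit reported here was *CDH1*, whose product binds the same protein on the next cell and depends on calcium. On its brighter probe (A_72_P043121) both low-gain arrays read 2.54, and the high-gain arrays read 2.00 and 1.92. The groups were 0.54 apart at their nearest, and the mean was 1.49-fold higher in low gain (log2 difference 0.58 ± 0.10, 95% confidence interval 0.30 to 0.86, limma adjusted p = 0.162). The second probe (A_72_P331483) was close to background, with processed signals from 51.5 to 65.7. It read -2.64 and -2.89 in low gain and -2.88 and -3.19 in high gain, so its groups overlapped, and its difference was 0.27 ± 0.17 (adjusted p = 0.454). That difference was 0.11 without high-gain array b, 0.14 without low-gain array a and 0.42 without high-gain array a. The mean over both probes differed by 0.42 (adjusted p = 0.109), less than the 0.55 of the single *CLDN3* probe.

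**Figure D2:**
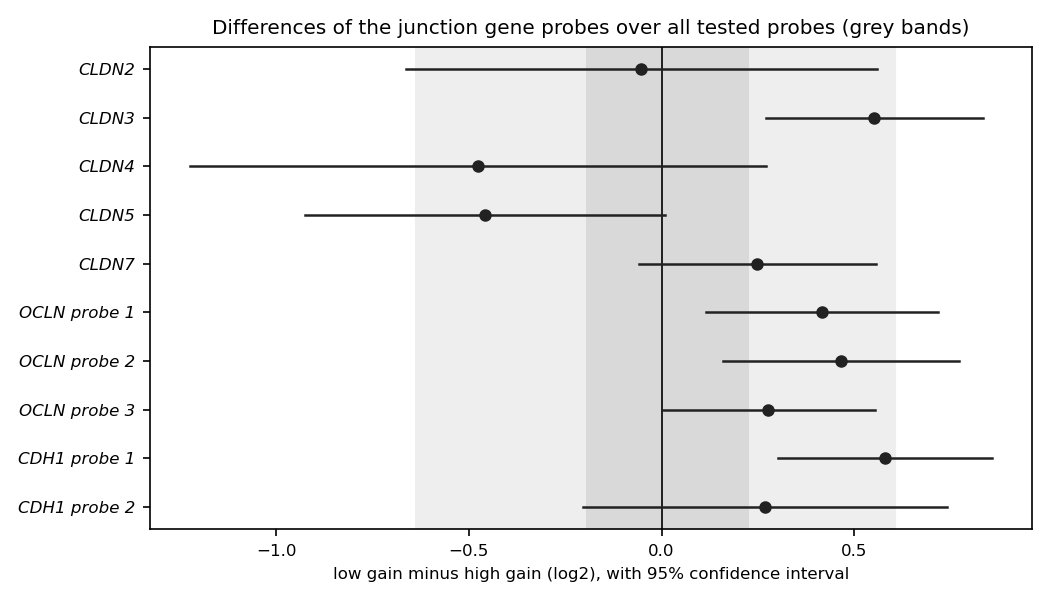
Low gain minus high gain log2 difference of each junction gene probe, with its 95% confidence interval, over bands that hold the middle of all 33265 tested probes (dark grey from the 25th to the 75th percentile, light grey from the 5th to the 95th). All 10 points lie inside the light band, which runs from -0.64 to 0.60, and the intervals of CLDN3, CDH1 probe 1 and the 3 OCLN probes lie above 0.

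The size of these differences was not unusual on these arrays. The absolute difference of the brighter *CDH1* probe exceeded that of 88.2% of all tested probes, that of *CLDN3* 86.8%, and that of *CLDN4* 82.3%. The probes that passed the test on the whole array each differed by at least 1.49 (log2), and no upper or lower confidence bound of a member reached that size. Except for *CLDN4*, each unadjusted 95% confidence interval lay within a 2-fold difference in either direction. With 2 arrays per group, the differences of *CDH1* and *CLDN3* thus lay below the smallest that passed in this fit.

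Calls differed between alternatives. When limma's prior variance followed signal intensity, 3 member probes passed, *CDH1* and *CLDN3* (adjusted p = 0.0188 for each) and the second *OCLN* probe (adjusted p = 0.0432), all higher in low gain. In that fit 3.76% of all tested probes passed, and 2.26% passed with the higher mean in low gain. The member calls did not hold in the same kind of fit without the noisiest array, low-gain a, which left 1 low-gain array. The differences without that array were 0.58 for *CDH1*, 0.51 for *CLDN3* and 0.43 for the second *OCLN* probe. No other array was left out of the fit with the trend, so a link to the noise of low-gain array a was not tested. With normexp background correction after replacing bright local backgrounds, *CDH1* (adjusted p = 0.0312) and *CLDN3* (adjusted p = 0.0397) passed with the higher mean in low gain, where 3.26% of all tested probes passed and 1.99% did so in that direction. *CLDN2*, *CLDN4*, *CLDN5* and *CLDN7* did not pass under any alternative that was run.

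The array held 14 other claudins, with 16 probes. Of these, 10 genes had a tested probe, each well above background on all 4 arrays, and the probes of *CLDN16*, *CLDN17*, *CLDN20* and *CLDN22* were not well above background on any array. The 10 tested claudins had a median difference of 0.08, with a range of -0.46 to 0.39, and 6 had the higher mean in low gain. None passed the limma test, and 1 had an unadjusted p under 0.05. That one was *CLDN14*, a claudin best known from the inner ear and kidney, at -5.83 and -5.76 in low gain and -6.16 and -6.20 in high gain (difference 0.39 ± 0.10, adjusted p = 0.206), values close to the limit of what the scanner flagged as above background.

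*CLDN15*, which forms sodium channels that small-intestinal absorption relies on, gave 2.26 and 2.17 in low gain and 2.37 and 2.32 in high gain. Its difference of -0.13 ± 0.10 (limma adjusted p = 0.531) had a 95% confidence interval of -0.42 to 0.15. *CLDN12* was at -0.53 and -0.52 against -0.83 and -0.75, without overlap (difference 0.26 ± 0.10, adjusted p = 0.292). *CLDN23* was at -2.69 and -2.63 against -1.99 and -2.52 (difference -0.40 ± 0.21, adjusted p = 0.383). *CLDN18* was set by 1 array, with low-gain array a at -5.26 and the others between -4.06 and -3.76. Apart from *CLDN18*, these claudins were chosen after their values were seen. Claudins resemble one another in sequence, and whether their probes cross-hybridise was not tested, so each value is uncertain in that respect.

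**Figure D3:**
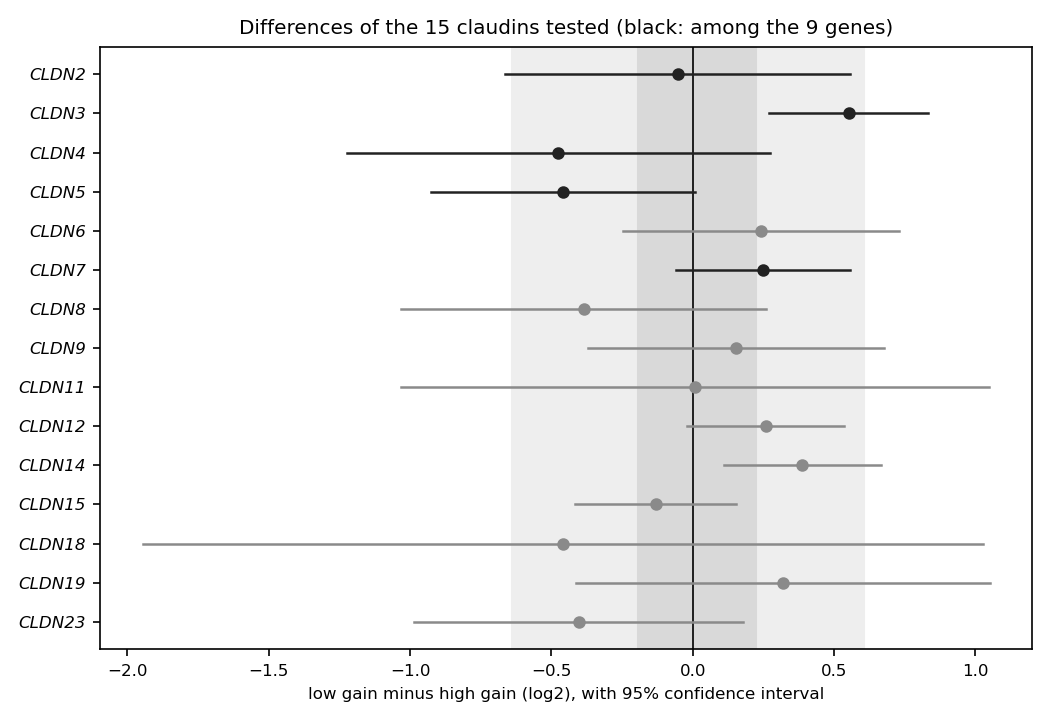
Low gain minus high gain log2 difference and 95% confidence interval of the 15 claudins with a tested probe, with the members in black and the others in grey, over the same bands of all tested probes. CLDN3 and CLDN14 are the claudins whose intervals lie above 0, and no interval lies wholly below 0.

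Other genes of the junctions showed no common direction. Among 12 tested tight junction genes outside the members, 0 rose, 0 fell and the median difference was 0.08, against 0.02 over the 2158 genes on the array read by their brightest probe. *PARD6B*, which encodes a polarity protein needed to place tight junctions, differed most, at 0.82 and 0.81 in low gain and 0.18 and 0.37 in high gain (difference 0.54 ± 0.12, limma adjusted p = 0.188). It passed when the prior variance followed intensity (adjusted p = 0.0438), the only one of 21 other tight, adherens, desmosome and gap junction genes to do so. *F11R*, which encodes the junctional adhesion molecule JAM-A, differed by -0.01 ± 0.10.

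Of 6 adherens junction genes, 0 passed, 4 had the higher mean in low gain and the median was 0.13. *CTNNB1*, which encodes beta-catenin, the partner of E-cadherin inside the cell, read 5.39 and 5.50 in low gain and 5.26 and 5.37 in high gain, a difference of 0.13 ± 0.11 with its 4 other probes between -0.08 and 0.30. *VCL*, the gene of the actin linker vinculin, differed by 0.37 ± 0.12 (adjusted p = 0.242), with 2 of its 3 other probes in the same direction. *NECTIN2*, which encodes a nectin adhesion receptor, differed by -0.52 ± 0.23 (adjusted p = 0.328). Desmosome and gap junction genes numbered 3, with 0 past the test. *JUP*, the gene of plakoglobin, differed by 0.27 ± 0.17 and *DSG1*, a desmosomal cadherin gene, by -0.71 ± 0.36, with low-gain array a at -4.91 and the other 3 arrays between -3.93 and -3.66.

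Genes that are known to regulate junctions did not pass the test either. Of 14 tested, 0 rose, 0 fell, 10 had the higher mean in low gain (53.4% of all genes did) and the median was 0.27. An unadjusted p under 0.05 was found for 6 of them (21.6% of all genes had one). The 4 with the lower mean in low gain were *VDR* (-0.30), *MMP9* (-0.19), *CDC42* (-0.19) and *ADAM10* (-0.11). The other *CDC42* probe gave 0.04. *ADAM17* gave 0.25 on its brightest probe but -0.62 and -0.31 on its 2 others. *MYLK*, the gene of the myosin kinase that opens tight junctions through actomyosin contraction, read 2.34 and 2.27 in low gain and 1.70 and 1.79 in high gain (difference 0.56 ± 0.11, limma adjusted p = 0.170). It is also a smooth muscle gene. The muscle genes *DES*, *CNN1* and *TPM2* differed by 0.51, 0.48 and 0.45, with the 2 other *DES* probes at -0.34 and -0.02. The muscle gene *ACTA2* differed by -0.25, with 2 of its 3 other probes in the same direction. The part of muscle in the *MYLK* value was not tested. *KLF4*, a transcription factor gene of differentiated epithelium, differed by 0.55 ± 0.10 (adjusted p = 0.173), and its second probe gave 0.58.

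Cytokines and receptors that act on barrier permeability gave a median of 0.13 over 15 genes, and 0 passed by the brightest probe. *AREG*, which encodes the epidermal growth factor receptor ligand amphiregulin, was the furthest apart, at -1.91 and -1.64 in low gain and -3.17 and -3.26 in high gain (difference 1.45 ± 0.14, adjusted p = 0.0895). The other *AREG* probe gave 1.60. *IL1B*, the gene of an inflammatory cytokine that loosens tight junctions, differed by 0.57 ± 0.16 (adjusted p = 0.217). *TNF* and *IFNG*, cytokine genes known for the same action, differed by 0.19 ± 0.12 and 0.11 ± 0.21, and the other *TNF* probe gave -0.63. In this list 5 of 15 genes had an unadjusted p under 0.05 (21.6% of all genes did), and 3 of these had the lower mean in low gain. The 3 were *IL10*, an anti-inflammatory cytokine gene (-0.34 ± 0.11, other probe -0.56), *TGFB1*, the gene of a growth factor known to support the barrier (-0.30 ± 0.11, other probe -0.44), and its receptor gene *TGFBR1* (-0.31 ± 0.11).

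**Figure D4:**
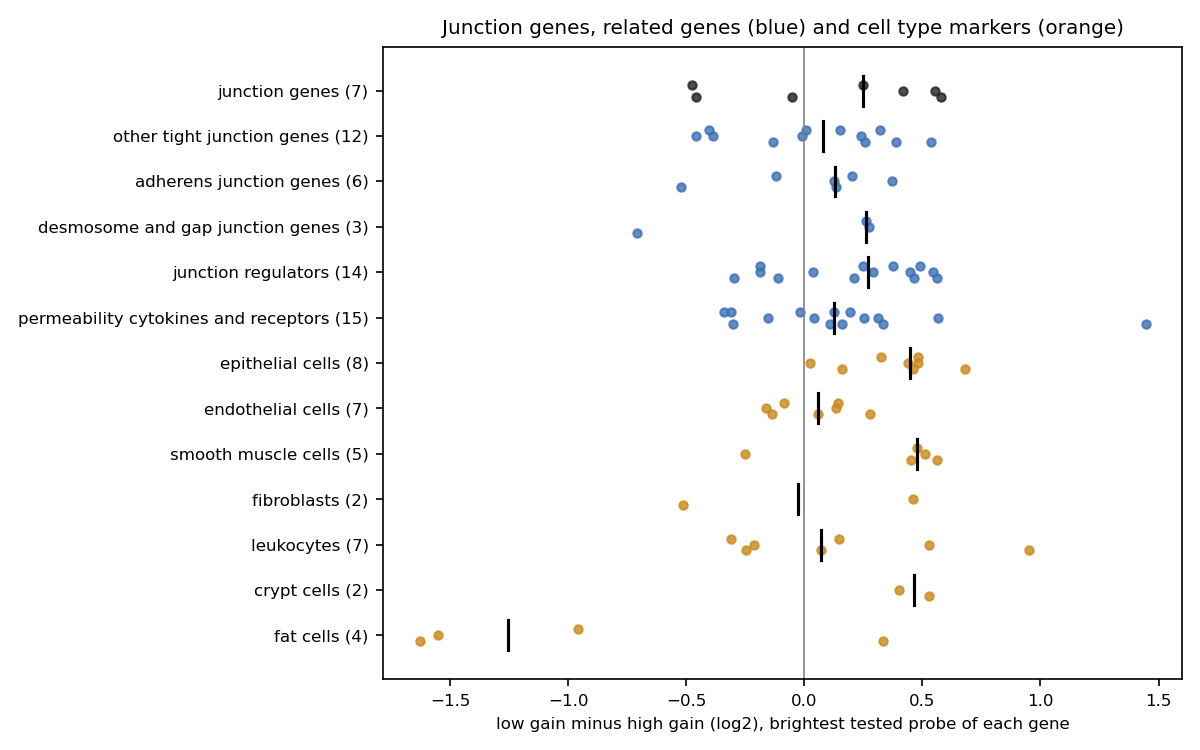
Low gain minus high gain log2 difference of each tested gene by its brightest probe, for the junction genes (black), related gene lists (blue) and cell type markers (orange), with the number of genes in parentheses and a bar at each median. Junction genes spread from -0.48 to 0.58, while all 8 epithelial markers lie above 0.

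Epithelial markers had higher means in low gain together with *CDH1*, *CLDN3* and *OCLN*. All 8 had the higher mean in low gain (53.4% of all genes did), and their median difference was 0.45. For 7 of them both low-gain arrays lay above both high-gain arrays (27.6% of all tested probes). The test was passed by 0, and 6 had an unadjusted p under 0.05 (21.6% of all genes did). *ANPEP*, the gene of a brush-border peptidase, differed by 0.68 ± 0.10, with its 2 other probes at 0.14 and 0.55. *KRT8*, a keratin gene, differed by 0.44 ± 0.10, with its 2 other probes at -0.30 and 0.34. *EPCAM*, an adhesion molecule of epithelial cells, differed by 0.16 ± 0.13, with all 15 of its other probes also higher in low gain. The summed linear signal of the 8 markers was 873 and 910 in low gain and 714 and 790 in high gain. *FABP6* weighs most in this sum, at 8.65 and 8.72 (log2) in low gain and 8.55 and 8.76 in high gain. Its own difference was 0.02, with overlap between groups. By brightest probe, *CDH1* (0.58), *CLDN3* (0.55), *OCLN* (0.42) and *CLDN7* (0.25) lay within the range of these markers, 0.02 to 0.68. *CLDN2* and *CLDN4* lay below it. The part of epithelial content in the members' values was not tested.

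Markers of other cell types in the slice differed in direction. Smooth muscle markers had a median of 0.48 over 5 genes, with 4 higher in low gain and *ACTA2* lower. Over their 15 tested probes, 10 had the higher mean in low gain. Fat cell markers had a median of -1.26 over 4 genes, with *FABP4* at -1.55. Leukocyte markers had a median of 0.07 over 7 genes by brightest probe, from -0.31 for *CD79A* to 0.95 for *CD8A*. The other *CD8A* probe gave 0.03, and the other *CD14* probe gave -1.11 where the brightest gave -0.25. Both crypt genes, *ASCL2* (0.53) and *SOX9* (0.40), had the higher mean in low gain, and the fibroblast genes *DCN* (0.46) and *THY1* (-0.51) differed in direction. None of the genes in these lists passed the limma test by its brightest probe (smallest adjusted p = 0.0561, for *FABP4*). The 5 other *FABP4* probes ran from -1.60 to -1.35. *ADIPOQ* gave -0.96 on its brightest probe and -1.66 on its other, and *LEP* gave 0.33 and 0.29. Their part in the members' values was not tested either.

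Among the named genes whose values across the 4 arrays lay nearest to those of *CDH1*, after subtracting each gene's own mean, were *DMD* and *AQP11*, which encode dystrophin and an aquaporin. Their root mean square distances from *CDH1* were 0.019 and 0.037 (log2) among 2157 genes compared over 4 arrays, and 82 genes lay within 0.1. Their differences between groups were 0.60 and 0.59, and neither passed the limma test (adjusted p = 0.161 for each).

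**Figure D5:**
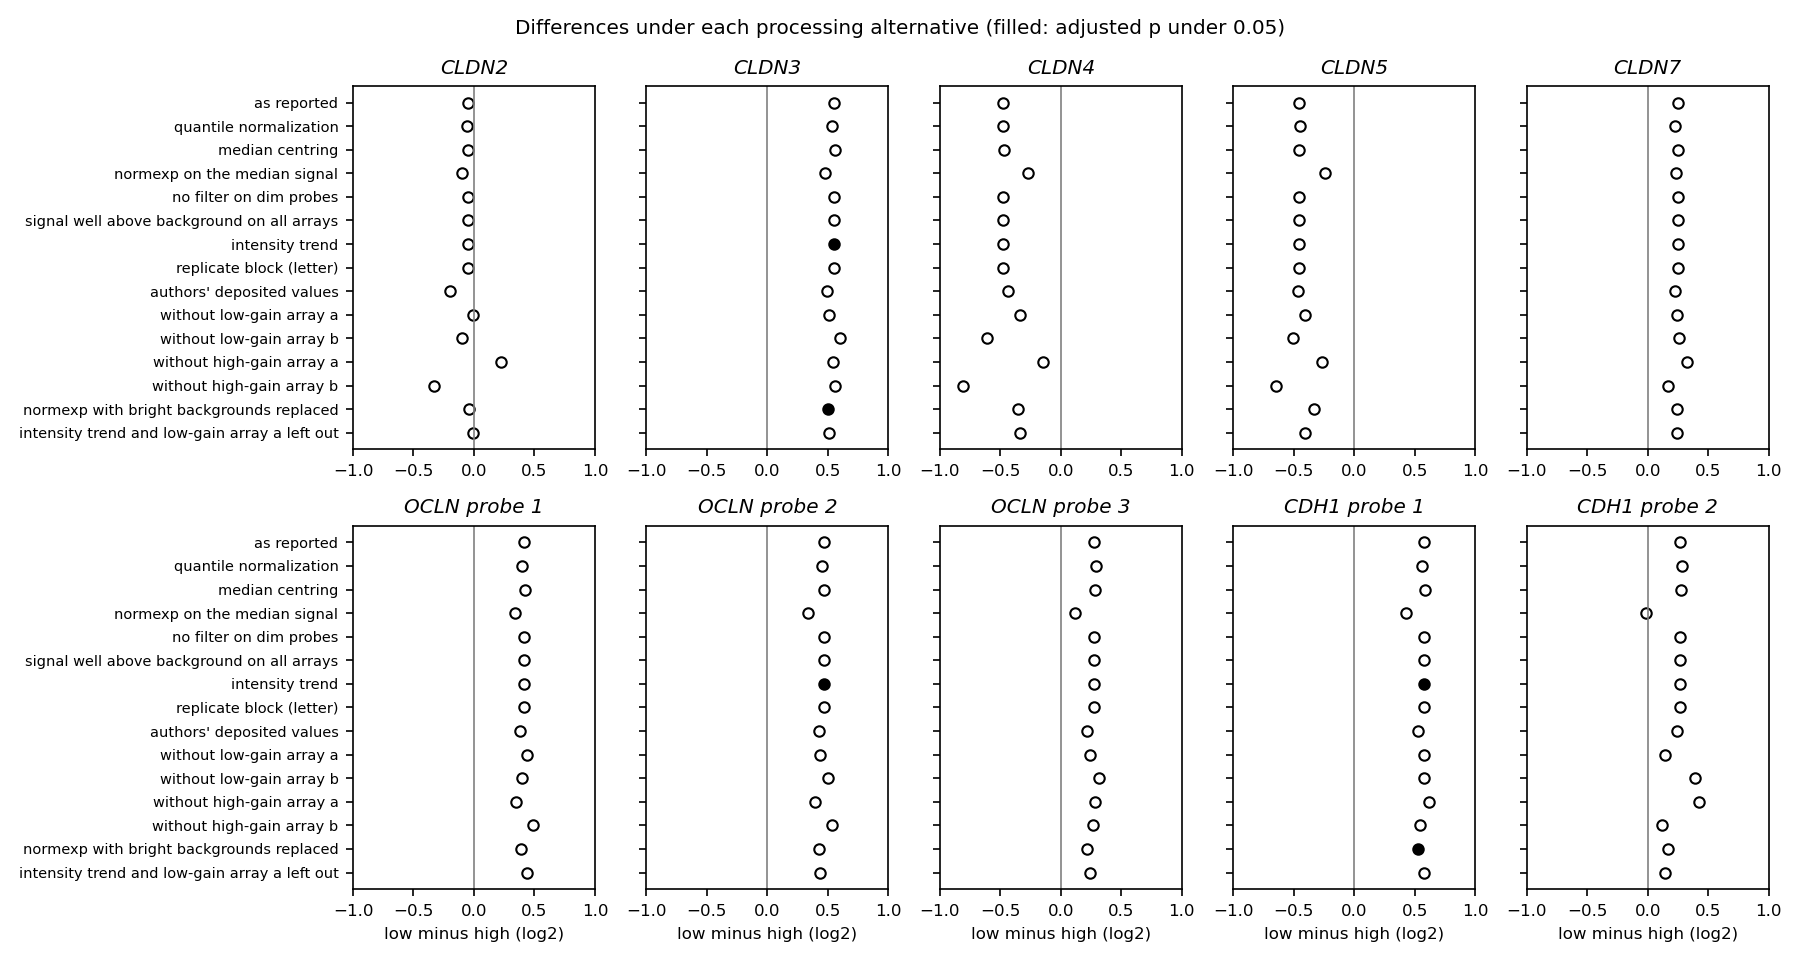
Low gain minus high gain log2 difference of each junction gene probe (horizontal axis) under the fit reported here and each processing alternative (rows), filled where the adjusted p was under 0.05. Points of CDH1 probe 1, CLDN3 and the OCLN probes stay right of 0 in every row, those of CLDN4 and CLDN5 stay left, and filled points appear with the intensity trend and with bright backgrounds replaced.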

How the data were processed

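Each of 4 RNA samples of piglet ileum was hybridised to 1 single-colour (Cy3) pig array. The authors deposited scanner output with an intensity for each spot (Agilent Feature Extraction 10.7.3.1, as the headers state): a processed signal after the software's background treatment, and median signal and local background pixels. A deposited table of the authors' log2 values follows log2 processed signal with slopes of 1.00 to 1.01 over spots well above background. Its column medians were 5.73 and 5.70 (low gain a, b) and 5.78 and 5.72 (high gain a, b). How it was normalised is not stated, and it served as an alternative.

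Here, log2 processed signal minus the array's 75th percentile was used, without spots flagged as outliers (48 probes dropped) and with spots of 1 probe averaged. Probes well above background on both arrays of at least 1 group (33265) were tested with limma 3.58.1 in R 4.3.3 (lmFit, eBayes, Benjamini-Hochberg, threshold 0.05), after a check on simulated data. Of 5779 probes with RefSeq accessions, 5461 matched a gene. A gene's brightest tested probe stood for it. No build is named in the files, so no coordinates are given. The number of arrays limits precision. Members and lists were chosen with earlier results of these data known. The rule named every member probe, the 2 largest differences of each of 5 lists and the 3 genes nearest to the member with the largest difference, 1 of which is not reported here; others named were chosen after their values were seen. Alternatives covered background, normalisation, filters, variance prior, letter block, the authors' values, averaging of probes and leaving out each array.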

Additional observations from a re-analysis of the deposited data

How the results depend on the processing

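Among the alternatives, the differences of *CDH1* (brighter probe), *CLDN3*, *CLDN4*, *CLDN5*, *CLDN7* and all 3 *OCLN* probes kept their direction in each one run, part of which is fixed, since filters, the trend and the block leave the differences as they are. The second *CDH1* probe turned to -0.011 under normexp on the median signal. *CLDN2* turned to 0.22 without high-gain array a, and ran from -0.33 to 0.22 when arrays were left out singly. The prior following intensity gave 3 member probes past the test and 1 other junction gene (*PARD6B*), with *CDH1* at 0.58 and *CLDN3* at 0.55. Normexp with bright backgrounds replaced gave 2 (*CDH1* at 0.53, *CLDN3* at 0.50) and 1 (*PARD6B*). Bright backgrounds (over 50) lay at 28 spots of low-gain array a and 25 of high-gain array b, while those of member spots were 15 to 21. That alternative, and the one with the trend that omits low-gain array a, were added after seeing the data.

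Over the whole array 80 probes passed the limma test, 32 of them higher in low gain. There were 163 with median centring, 12 with no filter on dim probes, 1250 with the trend (751 higher), 197 with the trend and without low-gain array a, and 1086 with bright backgrounds replaced (662 higher). There were 0 with normexp on the median signal (0 at an unadjusted p under 0.05), 0 with signal required on all arrays (6071 unadjusted) and 0 to 37 when arrays were left out singly. The letters pair no samples by any label, and deviations of array a from its group mean correlated at -0.037 between groups. With the letter as a replicate block 0 probes passed (4703 unadjusted), and 0 of 10 members (4 unadjusted). The cause of these changes was not tested. The *CLDN2* probe and the second *CDH1* probe were the dimmest of the members, and whether this affected their differences was not tested.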

Other observations

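Values relative to the epithelial markers were computed after the data were seen. The mean log2 signal of the 8 epithelial markers was 6.20 and 6.27 on the low-gain arrays and 5.80 and 5.90 on the high-gain arrays, a difference of 0.38. Relative to that mean on each array, *OCLN* differed by 0.04, 0.09 and -0.10 on its 3 probes, *CDH1* by 0.20 and -0.11, *CLDN3* by 0.17 and *CLDN7* by -0.13. *CLDN4* differed by -0.86 and *CLDN2* by -0.43 on this scale, and *CLDN5*, the claudin of endothelium, by -0.84, with both high-gain arrays above both low-gain arrays for each of these 3. Without high-gain array a these were -0.48, -0.11 and -0.60. Both low-gain arrays lay above both high-gain arrays for *CLDN3*, the brighter *CDH1* probe and the 2 brighter *OCLN* probes. For these *OCLN* probes the groups barely parted. Low-gain array b read -3.951 (brightest) and -4.294 (second), and high-gain array b read -3.954 and -4.295. The share of all tested probes without overlap on this scale was not computed. A ratio within an array shows unequal differences and does not say which of its parts differed.

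*CLDN3* and *CLDN4* are neighbours in the gene table, and their differences had opposite signs. The log2 ratio of the *CLDN3* to the *CLDN4* probe was 4.29 and 3.93 in low gain and 2.74 and 3.42 in high gain, a difference of 1.03 in the ratio. Without high-gain array a the difference was 0.69. The pair was chosen after its values were seen, so no test is given.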
